A study of Homo sapiens with 12 samples.

Results

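The response of HK-2 cells to 2,8-dihydroxyadenine (DHA) at 240 ug/ml was compared with that at 60 ug/ml. The comparison uses the 3 libraries at 240 ug/ml and the 3 at 60 ug/ml, 6 of the 12 libraries in the series, which were chosen by the dose in their titles. HK-2 is an established line derived from human kidney proximal tubule, and all groups were kept for 72 h in culture, with DHA in suspension at 60, 120 or 240 ug/ml or with medium alone (control). Poly(A) RNA was sequenced, and the title of the series asks about the integrity and phenotype of kidney epithelium. Both groups compared carry DHA, so the comparison reads what a higher dose adds to a lower one, and control and 120 ug/ml levels are given only for orientation. No solvent or carrier of the suspension is given in the sources used here, and the labels do not tell whether a group's 3 libraries are separate cultures. P-values here therefore describe the spread among the libraries, which may be technical. That spread was taken over all 12 libraries, so control and 120 ug/ml also enter the p-values. HK-2 is 1 immortalized line without other kidney cells.

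DHA is formed by xanthine dehydrogenase from adenine that is not salvaged by adenine phosphoribosyltransferase (APRT). It dissolves poorly and forms crystals in the tubules of people who lack the enzyme. Hypoxia-inducible factors bind a short DNA element and raise genes for angiogenesis, glycolysis and mitophagy. The integrated stress response slows general translation and raises ATF4, which acts with C/EBP partners on genes of amino acid supply and cell fate. The ERK pathway runs from growth factor receptors to immediate early transcription factors, and induces phosphatases and adaptors that damp it. Differentiated proximal tubule cells instead express solute transporters, apical enzymes and junction proteins, and rest on a basement membrane of type IV collagen and laminin.

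The deposited values are a normalized signal with no read counts, which leaves the sequencing depth unknown. Totals ran from 984048 to 1060084 at 60 ug/ml and from 791808 to 969479 at 240 ug/ml. Epithelial and tubule markers such as EPCAM (143.9 to 201 over the 6 libraries), KRT19 (323.1 to 390.9) and PAX8 (242.3 to 306.2) were present. KRT18 was at 134.7 to 193.6 and KRT8 lower, at 9 to 23. Of the other epithelial markers looked at, CDH1 was only at 0.2 to 1.2 and PAX2 at 0 to 0.5. Several defining proximal tubule genes were not present: LRP2 was listed at 0 in all 12 libraries, and CUBN, SLC34A1, AQP1, ANPEP and HNF4A never passed 0.9. Of the markers of other cell types, 0 of 8 endothelial, 2 of 10 leukocyte, 2 of 8 podocyte and 1 of 12 distal nephron genes reached the level needed for testing, and PECAM1, PTPRC and UMOD were at 0.1 or below in all 6 libraries. The summed levels at 60 and 240 ug/ml were 0.4 to 0.9 against 0.9 to 1.2 for the endothelial list, 95.9 to 161 against 85.7 to 112 for leukocytes, 28.2 to 36.1 against 25.4 to 32.2 for podocytes and 2.2 to 3.1 against 0.7 to 2.2 for the distal nephron. Most of the leukocyte sum was CD68 alone (86.3 to 145.9 against 72.2 to 99). Most of the podocyte sum was SYNPO (25.4 to 33 against 22 to 29.1). The part of other cell types in the results was not tested. On the first principal component of all 12 libraries (42.4% of the variance) the libraries at 60 ug/ml scored -12.6, -20 and 5.56 and those at 240 ug/ml 22, 39.5 and 31.4. Library 3 at 60 ug/ml therefore stood apart from libraries 1 and 2 of its group, toward the higher dose.

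The 6 libraries also differed in how their values followed base composition. Across 16774 genes, the deviation of a library from the mean of all libraries correlated with transcript GC content at 0.443, 0.293 and 0.0726 for the lower dose and at -0.177, -0.168 and -0.28 for the higher dose. The GC trend thus moved with the dose in this comparison, and which of the deposited differences go with dose and which with GC cannot be told apart for a single gene. Every result was therefore obtained on the deposited values and again with the GC trend of each library subtracted. A gene is said to have risen or fallen only where limma called it in the same direction in both fits, at a Benjamini-Hochberg adjusted p of 0.05 over all 16774 genes.

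In both fits together 931 genes rose (5.55% of those tested) and 1227 fell (7.31%), 2158 in all (12.9%). On the deposited values alone, 1964 were higher (11.7%) and 2202 lower (13.1%), together 24.8%. With the GC trend subtracted, the counts were 1282 (7.64%) and 1460 (8.7%), together 16.3%. So 51.8% of the deposited calls were also made, in the same direction, after subtraction, 584 calls were made only after subtraction, and no gene was called in opposite directions. A log2 change of 1 or more was reached on the deposited values by 65 genes called higher (0.388%) and 162 called lower (0.966%). In both fits it was reached by 51 genes that rose (0.304%) and 99 that fell (0.59%).

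**Figure D1:**
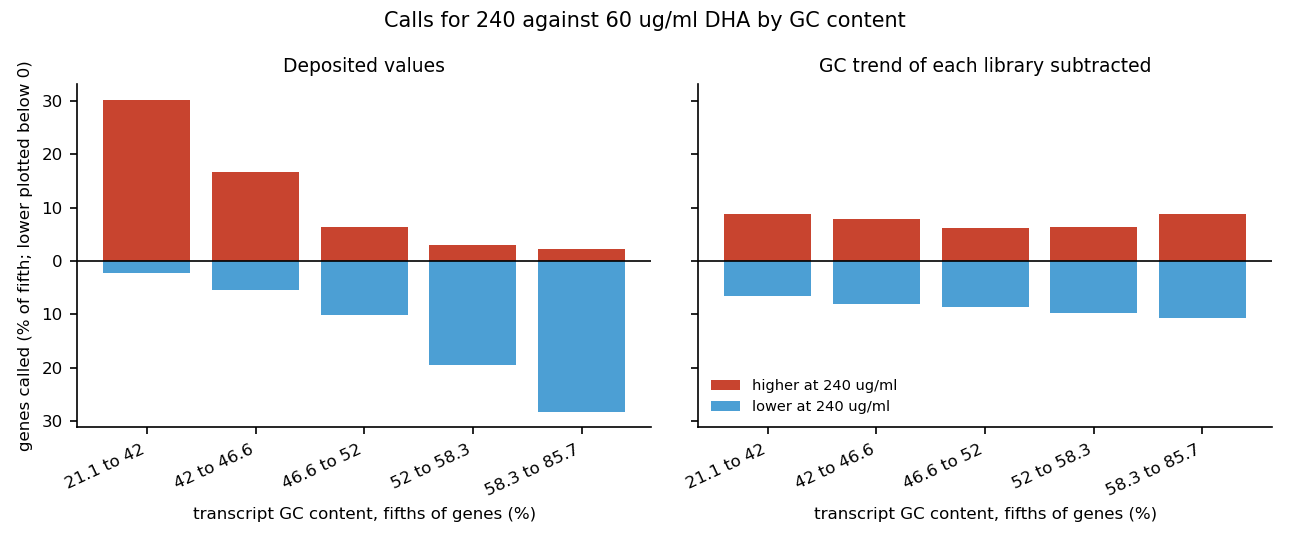
Share of tested genes called higher (above 0) and lower (below 0) at 240 than at 60 ug/ml, in % of genes, for 5 equal bins of genes ordered by transcript GC content, on the deposited values (left) and with the GC trend of each library subtracted (right). On the left the higher share falls from 30.2% in the bin lowest in GC to 2.27% in the highest while the lower share climbs from 2.3% to 28.3%. On the right they run from 6.14% to 8.88% and from 6.56% to 10.6%.

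The plot of calls by GC bin shows how the deposited calls followed base composition. Among the genes lowest in GC most deposited calls were higher, and among the genes richest in GC most were lower. After subtraction the higher share ran from 6.14% to 8.88% over the bins and the lower share from 6.56% to 10.6%. The counts also rested on single libraries: without library 1 at 60 ug/ml, 361 rose and 570 fell, without library 2 258 and 476, without library 2 at 240 ug/ml 427 and 624, and without library 3 461 and 737. Leaving out library 3 at 60 ug/ml, the one that stood apart, gave 1266 and 1464. A core of 217 genes that rose (1.29%) and 438 that fell (2.61%) was called in both fits and in each of the 12 fits that left out 1 of the 6 libraries. This core was defined after the values were seen.

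The totals were lower at 240 ug/ml, so the scaling matters for the balance of directions. With every library scaled to an equal total, the median log2 difference of all genes moved from -0.0159 to 0.179, and 2738 genes were higher and 494 lower in both fits. On the deposited values that scaling called 4056 higher and 882 lower, 82.1% higher against 47.1%. Centring each library on its median gene gave 1728 and 2353. Changes below are on the deposited scaling and so relative to a median gene that hardly differs between the doses. Medians of gene lists are given without GC subtraction unless stated. The RNA is that of whole cultures, in which fewer cells of a type and less RNA per cell cannot be told apart.

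TMEM158, a RAS-induced membrane protein, had the largest log2 difference among the protein-coding genes that rose. The gene lies on the minus strand of chromosome 3 at 45224466 to 45226278 (GRCh38). Its signal was 3.8, 1.9 and 5.9 at 60 ug/ml against 12.9, 14 and 10.1 at 240 ug/ml, with 0.9 to 1.1 in control. The groups did not overlap, and the difference was 1.53 on the log2(value + 1) scale (SE 0.24, limma adjusted p = 0.0028), a scale that understates changes at such low levels. ARHGAP22, a GTPase-activating protein for RAC1 (chromosome 10, 48446034 to 48656265, minus strand), stood at 38.6, 28.6 and 45.9 against 106.4, 126.2 and 87.2. All 3 libraries at the higher dose lay above all 3 at the lower (log2 1.49, SE 0.17, limma adjusted p = 0.00104; 1.59 after GC subtraction).

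CCND1, which encodes the G1 cyclin D1 and is a classical output of ERK signalling, was at 30.8, 20.2 and 34.2 at 60 ug/ml against 69.6, 69.6 and 60.7 at 240 ug/ml. It was already above the control mean of 5.63 at the lower dose and rose by a further 1.23 (SE 0.18, limma adjusted p = 0.00212). NAV3, a neuron navigator protein that binds microtubules, stood at 8.3, 7.3 and 11.8 against 19.6, 22.3 and 27.8, beside a control mean of 8.0, so its level at 60 ug/ml lay close to control. F3, the tissue factor that starts coagulation, was at 29.5, 16.7 and 51.4 against 71.7, 64.5 and 66.9. Its call (log2 1.17, limma adjusted p = 0.0152) was lost with the GC trend subtracted when any library but the third at 60 ug/ml was left out, at an adjusted p of up to 0.0741.

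MMP7, the secreted metalloproteinase matrilysin, had the largest fall among protein-coding genes called in both fits. Its signal was 88.5, 157.6 and 64.6 at 60 ug/ml against 19.6, 9.8 and 24 at 240 ug/ml, a log2 change of -2.46 (SE 0.33, limma adjusted p = 0.00158; -2.61 after GC subtraction). The gene lies on the minus strand of chromosome 11 at 102520508 to 102530753 (GRCh38). The mean was 382 in control and 28.5 at 120 ug/ml. IFITM1, an interferon-induced membrane protein that blocks virus entry, stood at 19.8, 33.7 and 8.0 against 4.2, 1.8 and 2.2 (-2.37, limma adjusted p = 0.00321). SLC34A2, a sodium-phosphate cotransporter, went from 8.7, 14 and 4.0 to 1.1, 0.6 and 0.8 (-2.30, limma adjusted p = 0.00178). In both genes, library 3 at 60 ug/ml was the lowest of its group but still above every library at 240 ug/ml.

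The other 5 of the 8 genes with the largest falls also had groups that did not overlap, as 37.6% of all genes tested did. PDZK1IP1, a small partner of the apical scaffold PDZK1, fell from 270.0, 303.3 and 185.7 to 97.5, 51.2 and 65.2 (-1.83). FXYD2, the gamma subunit that tunes the renal sodium pump, fell from 179.4, 213.0 and 130.9 to 63.2, 31.3 and 56.9 (-1.80). SERPINA1, the protease inhibitor alpha-1-antitrypsin, fell from 217.7, 231.3 and 141.3 to 74.7, 41.5 and 52.1 (-1.80). LUM, the matrix proteoglycan lumican (-1.82), and PLA1A, a phosphatidylserine-specific phospholipase (-1.80), complete the group, with limma adjusted p from 0.0014 to 0.00321 for the 5. In the plot of leading genes the mean at 120 ug/ml lay between the means at 60 and 240 ug/ml for all 16, and control lay on the far side of 60 ug/ml.

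**Figure D2:**
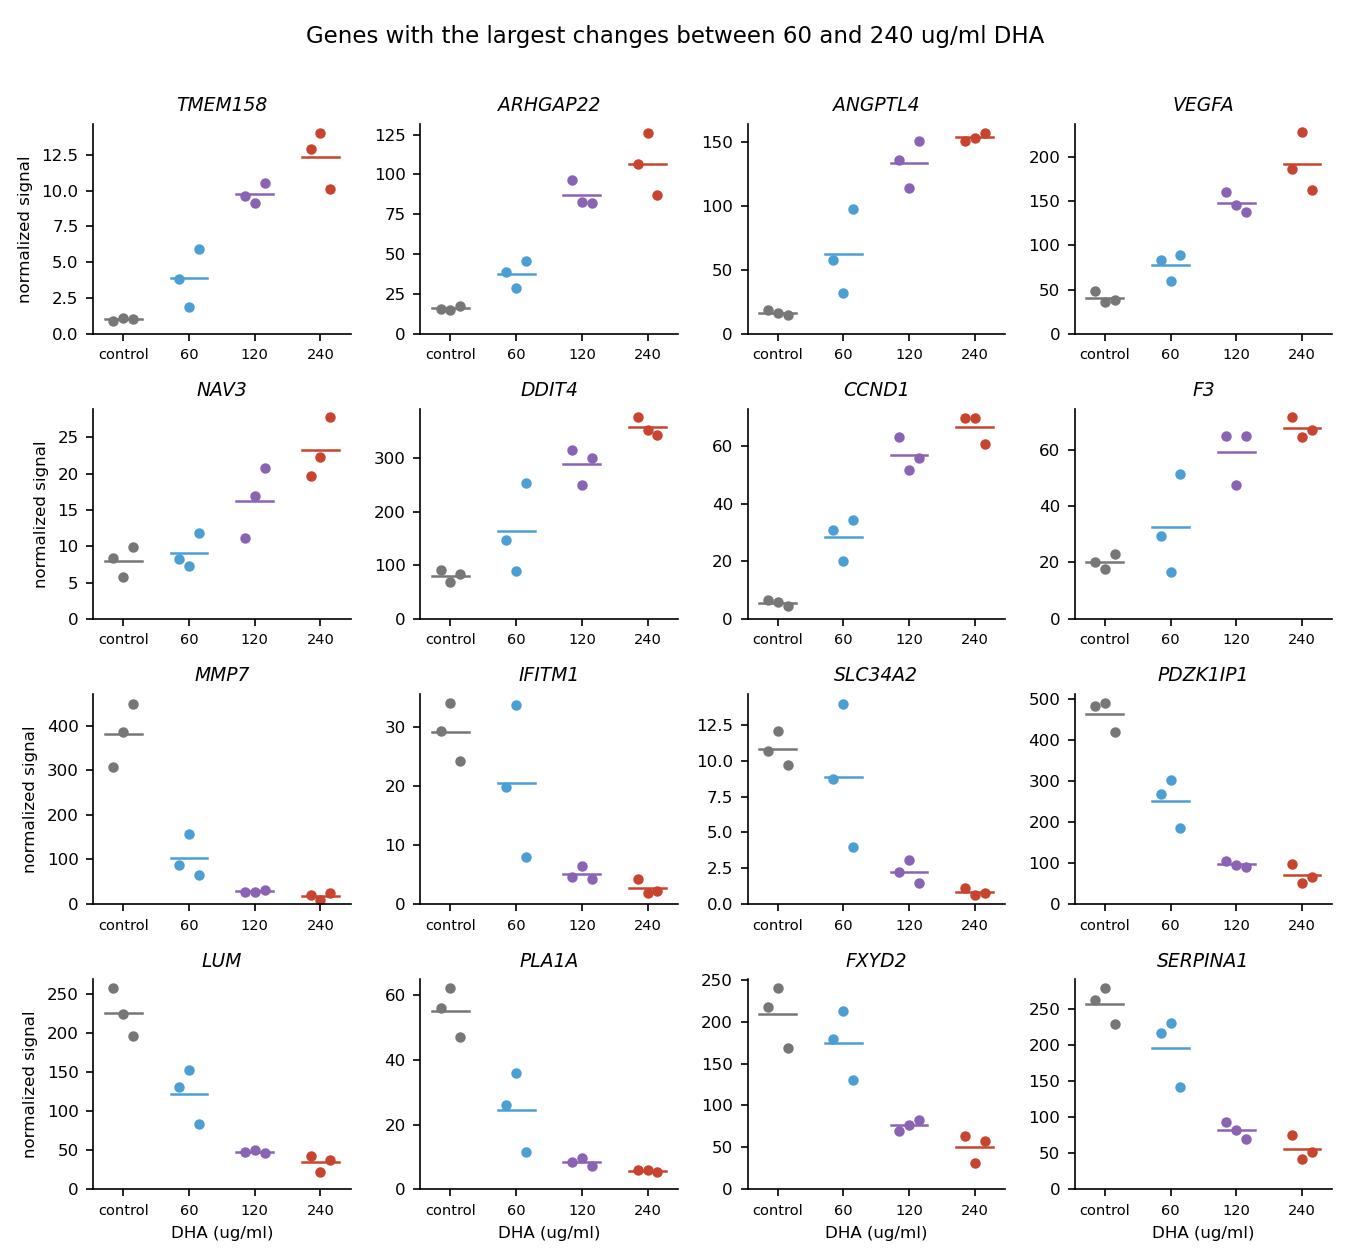
Normalized signal of the 8 protein-coding genes with the largest rise and the 8 with the largest fall in both fits, by library (points) and group mean (lines), in control and at 60, 120 and 240 ug/ml DHA. The axes start at 0. TMEM158 climbs from a mean of 3.87 at 60 ug/ml to 12.3 at 240 ug/ml, and MMP7 drops from 104 to 17.8.

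Calls in the 45 gene lists, of which 44 had tested members, fell into different patterns. The lists with many risers were the unfolded protein and integrated stress response (13 of 36), immediate early genes (9 of 25), ERK outputs (8 of 23), amino acid transporters (6 of 21) and hypoxia genes (10 of 38), beside 5.55% of all genes. The lists with many falls were collagens and matrix proteins (17 of 28), proximal tubule genes (8 of 17), complement and inflammasome genes (7 of 16), mitochondrially encoded mRNAs (5 of 13), tubule injury genes (8 of 21), metallothionein and zinc genes (4 of 13) and lysosomal genes (12 of 40), beside 7.31% of all genes. These lists were chosen with earlier results of these data known, so the counts describe them and are not independent evidence. With only the 6 libraries fitted, the rises numbered 5 in the stress response, 3 among immediate early genes and 4 among ERK outputs. They numbered 1 among amino acid transporters and 2 among hypoxia genes. The falls numbered 5 in matrix, 6 in proximal tubule, 3 in complement and inflammasome and 1 in mitochondrially encoded genes. They numbered 3 in tubule injury, 0 in metallothionein and zinc and 3 in lysosomal genes. With equal totals, some counts described below moved by over 1.5 times: rises went from 3 to 10 in autophagy, from 7 to 14 in purine metabolism and from 4 to 7 in heat shock proteins, and falls from 5 to 2 among cyclins and CDK inhibitors, from 6 to 3 among SRF and YAP/TAZ targets, from 5 to 1 in adherens junctions, from 5 to 3 among immediate early genes, from 4 to 1 in the BCL2 family and from 4 to 2 among metallothionein and zinc genes, ribosomal proteins and mesenchymal markers.

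**Figure D3:**
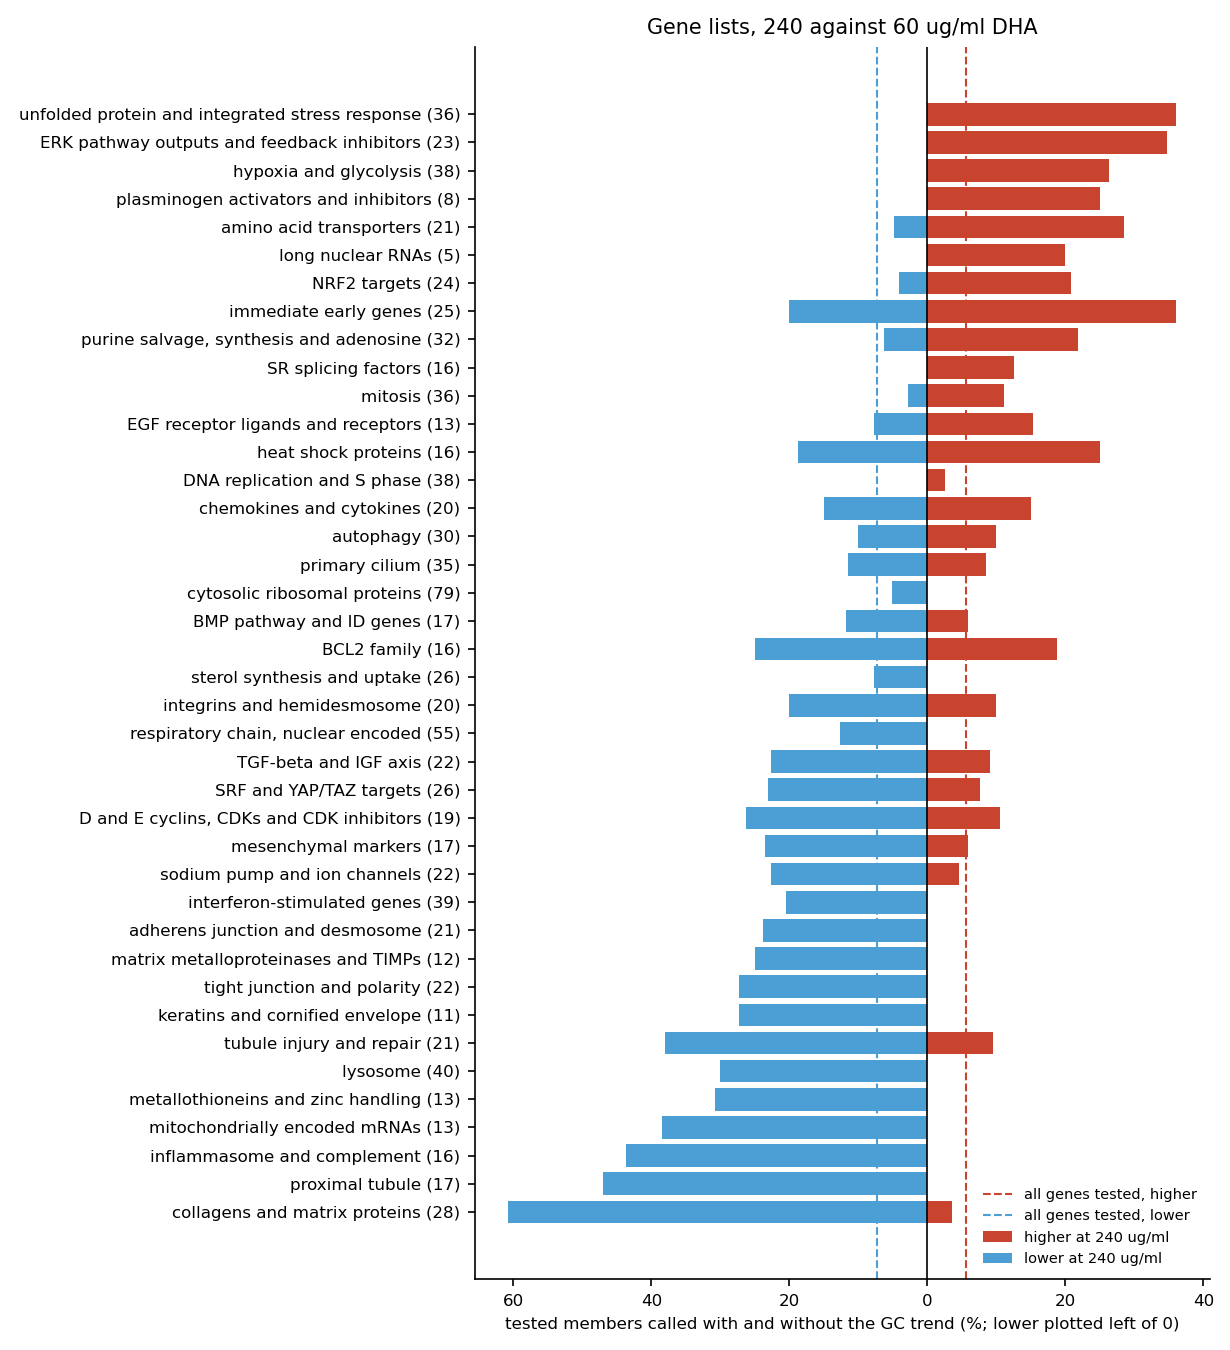
Share of tested members (number in brackets) of 40 gene lists with at least 5 tested members that rose (right of 0) or fell (left of 0) at 240 against 60 ug/ml in both fits, in %. Dashed lines mark all genes tested, 5.55% and 7.31%. The stress response (13 of 36) and immediate early (9 of 25) lists reach far to the right, and the matrix (17 of 28) and proximal tubule (8 of 17) lists far to the left.

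Some hypoxia-responsive genes rose, led by secreted factors. Of 38 tested, 10 rose in both fits and none fell (limma, with 16 higher and 2 lower at an unadjusted p under 0.05 on the deposited values), and the median log2 difference of the list was 0.254 against -0.0159 for all genes. ANGPTL4, a secreted inhibitor of lipoprotein lipase, was at 57.6, 31.7 and 97.8 at 60 ug/ml against 151.5, 153.6 and 157.5 at 240 ug/ml (log2 1.43, SE 0.29, limma adjusted p = 0.00658). The libraries at the lower dose were widely spread and those at the higher dose nearly equal, with no overlap. VEGFA, the main angiogenic growth factor made by tubule cells, was at 83.7, 60.2 and 88.9 against 186.4, 227.6 and 162.6 (log2 1.30, SE 0.17, limma adjusted p = 0.00147). DDIT4, an inhibitor of mTORC1 shared with the stress response list, was at 146.8, 90.1 and 254.4 against 376.4, 352.1 and 342.8 (log2 1.25, limma adjusted p = 0.00936). In both genes every library at 240 ug/ml lay above every library at 60 ug/ml.

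The other hypoxia genes that rose were HK1, HK2, NDRG1, ADM, BNIP3, BNIP3L and KDM3A. HK2, the inducible hexokinase that starts glycolysis, rose by 0.71 (limma adjusted p = 0.00851) and NDRG1, a hypoxia-induced differentiation gene, by 0.89 (limma adjusted p = 0.0143). BNIP3, a mitophagy receptor, stood at 169.4, 124.8 and 301.1 against 462.3, 338.2 and 430.6 (log2 1.13, limma adjusted p = 0.015). Its control mean was 203, so its mean at 60 ug/ml did not lie above control, and its call was lost without library 1 or library 2 at 60 ug/ml, at a limma adjusted p of up to 0.062. With the GC trend subtracted, the call was lost without these and without library 1 or 3 at 240 ug/ml (limma adjusted p up to 0.0857). Glycolytic LDHA (log2 0.67, limma adjusted p = 0.0574) and the glucose transporter SLC2A1 (0.22, limma adjusted p = 0.325) did not pass. ANGPTL4, DDIT4, HK2, NDRG1 and VEGFA were kept in all 12 fits that left out 1 library. The number that rose was 5 without library 1 or 2 at 60 ug/ml, or library 1 or 3 at 240 ug/ml, 8 without library 2 at 240 ug/ml and 15 without library 3 at 60 ug/ml, and 22 with equal totals.

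The core letters bound by hypoxia-inducible factors, ACGTG on either strand, were looked for in the 250 bases before the RefSeq start (GRCh38.p14) of these genes. They were present in 4 of the 7 risers with a promoter sequence (57.1%: ANGPTL4, BNIP3, DDIT4 and HK2), in 10 of the 25 other tested members (40.0%) and in 5101 of 27305 promoters (18.7%). Such a match is a description of the letters and no evidence of binding. The promoters of ANGPTL4 (chr19:8363905-8364154, plus strand), DDIT4 (chr10:72273674-72273923, plus strand) and BNIP3 (chr10:131981924-131982173, minus strand) are shown because they belong to the 3 risers of largest change that hold the letters. Capitals mark the match, and in BNIP3 the matches on both strands overlap.
ANGPTL4: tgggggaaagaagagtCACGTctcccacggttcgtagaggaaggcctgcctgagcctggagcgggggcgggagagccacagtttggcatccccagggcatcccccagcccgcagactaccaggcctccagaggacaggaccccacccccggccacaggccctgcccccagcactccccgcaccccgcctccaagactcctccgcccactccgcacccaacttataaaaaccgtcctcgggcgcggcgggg
DDIT4: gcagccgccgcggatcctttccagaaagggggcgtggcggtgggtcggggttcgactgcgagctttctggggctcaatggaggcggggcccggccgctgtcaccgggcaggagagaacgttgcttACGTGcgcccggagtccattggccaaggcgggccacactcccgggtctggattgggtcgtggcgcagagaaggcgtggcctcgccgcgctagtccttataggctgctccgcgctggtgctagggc
BNIP3: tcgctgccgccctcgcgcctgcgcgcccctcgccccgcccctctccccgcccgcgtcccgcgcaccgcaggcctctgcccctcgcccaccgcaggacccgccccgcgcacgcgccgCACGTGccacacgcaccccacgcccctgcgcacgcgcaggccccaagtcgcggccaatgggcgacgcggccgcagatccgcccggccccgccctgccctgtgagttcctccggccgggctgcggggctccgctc

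Genes of the unfolded protein response and the integrated stress response were taken as 1 list. Of 36 tested genes, 13 rose in both fits and none fell by limma (16 higher and 6 lower at an unadjusted p under 0.05; median log2 0.174): ATF3, DDIT3, DDIT4, TRIB3, CHAC1, ASNS, PSAT1, SESN2, PPP1R15A, CEBPB, CEBPG, EDEM1 and CTH. DDIT3, the pro-apoptotic factor CHOP, had little spread: 39.1, 38.1 and 35.2 against 57.4, 57.0 and 56.7 (log2 0.59, SE 0.06, limma adjusted p = 0.000925). Its control mean was 45.2, above all libraries at 60 ug/ml and below all at 240 ug/ml. CTH, which makes cysteine from cystathionine, was at 7.5, 5.7 and 7.7 against 13.6, 15.6 and 14 (log2 0.96, limma adjusted p = 0.0014). CHAC1, an enzyme that degrades glutathione, was at 15.6, 9.0 and 20.6 against 30.4, 30.1 and 25.1 (log2 0.94, limma adjusted p = 0.0116). Neither gene's groups overlapped.

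ASNS, the asparagine synthetase, was at 94.4, 77.5 and 99.6 against 160.0, 143.2 and 137.4 (log2 0.70, limma adjusted p = 0.00263). ATF3, a stress-induced transcription factor, was at 13.6, 11.1 and 12 against 19.4, 24.8 and 21.6 (log2 0.79, limma adjusted p = 0.0036). PPP1R15A, the phosphatase subunit GADD34 that reverses the translational block, rose by 0.56 (limma adjusted p = 0.00296), and EDEM1, a factor of ER-associated degradation, by 0.50 (limma adjusted p = 0.0029). By contrast the ER chaperone HSPA5 (BiP) differed by 0.17 (limma adjusted p = 0.358), XBP1 by 0.18 (limma adjusted p = 0.184) and the ATF4 mRNA itself by 0.17 (limma adjusted p = 0.455), and the chaperone CALR was lower in the deposited values only (-0.45, limma adjusted p = 0.0479). On the deposited values alone, 15 members of the list were called higher and 5, CALR among them, lower. ASNS, ATF3, CHAC1, CTH, DDIT3, DDIT4, EDEM1 and PPP1R15A were kept in all 12 fits that left out 1 library. When 1 library was left out, the list's count ranged from 8 (without library 2 at 60 ug/ml) to 13. With only the 6 libraries fitted it was 5.

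The C/EBP-ATF letters TGATGNAA, searched on both strands in the same 250 bases, were present in 3 of the 13 risers (23.1%), in 1 of the 22 other members with a promoter, HERPUD1 (4.55%), and in 870 of 27305 promoters (3.19%). The 3 are shown here: CHAC1 (chr15:40953221-40953470, plus strand), ATF3 (chr1:212565157-212565406, plus strand) and ASNS (chr7:97872409-97872658, minus strand), from RefSeq on GRCh38.p14, with the match in capitals. It starts 209, 191 and 68 bases before the start, and in CHAC1 it reads on the opposite strand.
CHAC1: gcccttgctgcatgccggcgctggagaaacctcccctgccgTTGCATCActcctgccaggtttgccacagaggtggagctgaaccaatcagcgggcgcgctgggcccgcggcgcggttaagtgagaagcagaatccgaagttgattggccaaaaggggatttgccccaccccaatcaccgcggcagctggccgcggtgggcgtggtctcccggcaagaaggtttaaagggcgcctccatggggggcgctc
ATF3: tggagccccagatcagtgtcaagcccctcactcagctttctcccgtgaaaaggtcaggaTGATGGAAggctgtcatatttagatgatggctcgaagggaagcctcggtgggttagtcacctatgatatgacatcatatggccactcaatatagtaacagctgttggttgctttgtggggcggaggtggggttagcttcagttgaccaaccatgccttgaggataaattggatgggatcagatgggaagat
ASNS: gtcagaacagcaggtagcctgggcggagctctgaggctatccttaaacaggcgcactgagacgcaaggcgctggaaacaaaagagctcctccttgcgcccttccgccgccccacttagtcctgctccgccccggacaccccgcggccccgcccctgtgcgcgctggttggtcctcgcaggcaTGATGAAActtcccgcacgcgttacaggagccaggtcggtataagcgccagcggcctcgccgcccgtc

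Amino acid transporters supply the same pathways. Of 21 tested, 6 rose (SLC7A1, SLC7A5, SLC7A11, SLC3A2, SLC38A1 and SLC6A9) and 1, SLC7A6, fell (median log2 0.11). SLC7A5, the light chain of the large neutral amino acid exchanger, was at 85.8, 53.8 and 115.6 against 146.3, 164.8 and 152.3, with no overlap (log2 0.92, limma adjusted p = 0.0123). SLC7A11, the cystine-glutamate antiporter, was at 4.1, 2.7 and 6.4 against 8.2, 10.9 and 9.8 (log2 1.03, limma adjusted p = 0.00861). The number that rose was 3 without library 1 or 2 at 60 ug/ml or library 3 at 240 ug/ml, and 8 without library 1 at 240 ug/ml.

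Several ERK outputs and feedback inhibitors rose. Of 23 tested, none fell by limma (0 lower and 11 higher at an unadjusted p under 0.05) and 8 rose (DUSP5, DUSP6, DUSP10, SPRY2, SPRED2, CCND1, MYEOV and SH2B3), and the median log2 difference was 0.242. DUSP6, the cytoplasmic phosphatase of ERK, was at 23.0, 22.0 and 28.5 against 44.6, 52.6 and 53.7 (log2 1.01, SE 0.13, limma adjusted p = 0.0014), beside a control mean of 7.97. DUSP5, the nuclear ERK phosphatase, was at 68.1, 50.7 and 59.5 against 112.9, 124.8 and 93.3 (log2 0.88, limma adjusted p = 0.00358). The doses did not overlap in either gene. CCND1, DUSP10, DUSP5, DUSP6 and SPRED2 were kept in all 12 fits, and the count was 5 without library 2 at 60 or at 240 ug/ml.

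Among EGF receptor genes, 2 of 13 rose and 1, the ligand AREG, fell. The call of AREG was lost on the deposited values without library 1 or 3 at 60 ug/ml or library 2 at 240 ug/ml (limma adjusted p up to 0.0863), and with equal totals (log2 -0.08, limma adjusted p = 0.567). ERRFI1, an induced inhibitor of the EGF receptor, was at 79.6, 59.5 and 105.3 against 186.0, 191.4 and 156.7, without overlap (log2 1.15, limma adjusted p = 0.00219). NRG1, a ligand of ERBB3 and ERBB4, rose by 0.62 (limma adjusted p = 0.00489).

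Immediate early genes changed in both directions. Of 25 tested, 9 rose (FOSB, FOSL1, JUN, EGR2, ATF3, KLF4, KLF6, KLF10 and PLAUR) and 5 fell (JUND, IER5, BTG2, CCN1 and CCN2), with a median of 0.258. JUN, the AP-1 subunit, was at 49.7, 37.1 and 57.9 against 71.3, 108.3 and 74.2 (log2 0.80, limma adjusted p = 0.00756). FOS (0.20, limma adjusted p = 0.344) and EGR1 (-0.60, limma adjusted p = 0.0863) did not pass, and MYC passed only after GC subtraction (0.26 deposited, limma adjusted p = 0.0545). The matricellular CCN2 was at 89.6, 109.3 and 72.8 against 54.5, 36.2 and 49.5 (log2 -0.94, limma adjusted p = 0.00381). The number that rose was 5 without library 2 at 60 ug/ml.

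CCN1 and CCN2 are also targets of SRF and YAP/TAZ, the factors that read the actin cytoskeleton. Of 26 such genes, 6 fell (MYL9, TPM4, CCN1, CCN2, AMOTL1 and TGFB2) and 2 rose (F3 and PTPN14), with a median of -0.281. The number that fell was 4 without library 1 at 60 ug/ml or library 2 or 3 at 240 ug/ml, and 3 without library 2 at 60 ug/ml. The BMP targets ID1 (log2 -1.06, limma adjusted p = 0.00227) and ID3 (-1.16, limma adjusted p = 0.00482), inhibitors of basic helix-loop-helix factors, fell and BMP2 rose, 3 calls among 17 genes. The median of that list was 0.0222 on the deposited values and -0.0964 after GC subtraction, and of all genes 5.55% rose and 7.31% fell. The call of BMP2 was lost without library 1 or 2 at 60 ug/ml or library 1 or 3 at 240 ug/ml (limma adjusted p up to 0.0975). That of ID3 was lost, with GC subtracted, without library 1 or 2 at 60 ug/ml or library 2 at 240 ug/ml (limma adjusted p up to 0.0611).

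Cell cycle regulators changed around G1. Of 19 cyclins, CDKs and inhibitors, CCND1 and CDK6 rose, and CDK2, CDKN1B, CDKN1C, CDKN2A and CDKN2C fell (median -0.313). CDKN2C, the CDK4/6 inhibitor p18, was at 27.8, 38.8 and 29.4 against 15.8, 13.7 and 17.0 (log2 -0.99, limma adjusted p = 0.00236). CDKN1C, the inhibitor p57, was at 17.4, 13.3 and 9.2 against 5.5, 6.8 and 6.1 (log2 -0.97, limma adjusted p = 0.00366). No library overlapped in either. The falls numbered 3 without library 2 or 3 at 60 ug/ml or library 2 at 240 ug/ml.

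Replication genes gave few calls, and mitosis genes gave more on the deposited values than in both fits. Of 38 S phase genes 1 changed, RFC1, the large subunit of the clamp loader (log2 0.72, limma adjusted p = 0.004). The S phase rises numbered 7 with equal totals and 3 without library 3 at 60 ug/ml. Of 36 mitosis genes, 4 rose (BUB1, TTK, KIF23 and MKI67) and KIF20A fell, although 13 were higher and 2 lower on the deposited values. Of all genes, 5.55% rose and 7.31% fell. The median of the mitosis list was 0.333, and 0.239 after GC subtraction. On the deposited values, 21 were higher and 2 lower at an unadjusted p under 0.05 by limma. Without library 3 at 60 ug/ml 18 rose, with equal totals 20, without library 1 at 240 ug/ml 2, and without any of the other 4 libraries 1.

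NRF2 targets, the antioxidant genes raised when KEAP1 releases NRF2, gave 5 rises (HMOX1, GCLC, GCLM, TXNRD1 and SLC7A11) and 1 fall (AKR1C3) among 24. HMOX1, the inducible heme oxygenase, was at 50.4, 35.5 and 48.6 against 83.7, 103.6 and 110.6 (log2 1.14, SE 0.17, limma adjusted p = 0.00212). TXNRD1, thioredoxin reductase, was at 122.2, 106.6 and 154.6 against 226.3, 226.2 and 263.0 (log2 0.91, limma adjusted p = 0.00207). Groups were apart in both. The classical target NQO1 differed by 0.15 (limma adjusted p = 0.525), and AKR1C3, an aldo-keto reductase with close paralogs whose reads could be split, went from 10.3, 14.8 and 7.3 to 3.9, 2.1 and 3.4 (log2 -1.49, limma adjusted p = 0.00315). The rises numbered 2 without library 1 or 2 at 60 ug/ml or library 3 at 240 ug/ml, and 3 without library 2 at 240 ug/ml.

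The heat shock proteins that changed divided by class. The large chaperones HSPA4, HSP90AA1, HSPH1 and HSPD1 rose and the small ones HSPB1, HSPB8 and CRYAB fell, 7 of 16 tested. HSPB8, a partner of BAG3 in selective autophagy, was at 46.0, 52.2 and 36.6 against 22.2, 17.6 and 24.6 (log2 -1.03, limma adjusted p = 0.00154). HSP90AA1 was at 436.4, 456.0 and 636.9 against 771.5, 751.6 and 870.1 (log2 0.66, limma adjusted p = 0.0104), without overlap. The number that rose was 0 without library 1 or 2 at 60 ug/ml or library 3 at 240 ug/ml, and 2 without library 2 at 240 ug/ml.

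Genes of purine metabolism are of interest because DHA is itself a purine. Of 32 tested, 7 rose (XDH, NT5E, NT5C3A, MTAP, PPAT, GMPS and ADORA2B) and 2 fell (ADA and ADSS1), with a median of 0.0907. APRT, the salvage enzyme for adenine, was at 139.4, 131.0 and 142.9 against 122.4, 104.3 and 116.0, which did not overlap, but its difference did not pass (log2 -0.27, limma adjusted p = 0.0661) and was -0.05 after GC subtraction. HPRT1, the salvage enzyme for hypoxanthine and guanine, did not pass either (0.40, limma adjusted p = 0.0745).

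PPAT, the first committed enzyme of purine synthesis, was at 29.1, 29.8 and 37.6 against 46.4, 53.5 and 54.0 (log2 0.66, limma adjusted p = 0.00336). NT5E, the ectonucleotidase CD73 that makes adenosine, was at 16.2, 11.9 and 20.0 against 33.9, 31.8 and 30.5 (log2 0.98, limma adjusted p = 0.00496). ADA, which deaminates adenosine, was at 17.3, 14.5 and 13.3 against 9.3, 6.4 and 8.9 (log2 -0.81, limma adjusted p = 0.0028). In all 3 the doses were fully separated. XDH, xanthine dehydrogenase, was barely detected, at 0.6, 0.6 and 0.3 against 2.1, 1.1 and 2.0 (log2 0.85, limma adjusted p = 0.00924). The rises numbered 3 without library 1 at 60 or at 240 ug/ml, 4 without library 3 at 240 ug/ml and 1 without library 2 at 60 ug/ml.

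Most matrix genes fell. Of 28 tested, 17 fell and 1 rose, with a median log2 difference of -0.569. The 17 included collagens (COL1A1, COL4A1, COL4A2, COL5A1 and COL12A1), basement membrane proteins (NID1 and HSPG2), proteoglycans (LUM and DCN) and the microfibril proteins FBN1 and MFAP2. SPARC, a collagen-binding matricellular protein, was at 803.5, 940.9 and 639.0 against 368.4, 251.0 and 368.2 (log2 -1.27, SE 0.17, limma adjusted p = 0.00158). COL4A1, a chain of basement membrane collagen, was at 382.4, 389.7 and 308.3 against 223.1, 176.6 and 212.6 (log2 -0.82, limma adjusted p = 0.00179). Their control means were 1963 and 628, and neither overlapped between the doses.

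LOX, the collagen cross-linking oxidase, was the riser (log2 0.54, limma adjusted p = 0.0103). Only COL4A1, LUM, MFAP2 and SPARC were kept in all 12 fits. The falls numbered 6 without library 1 at 60 ug/ml, 4 without library 2, 7 and 9 without libraries 2 and 3 at 240 ug/ml, and 8 with equal totals. Among 12 metalloproteinases and inhibitors, MMP7, MMP24 and TIMP2 fell and none rose by limma (1 higher and 8 lower at an unadjusted p under 0.05), and all 3 were kept in the 12 fits. With equal totals 2 genes of this list fell, and TIMP2 was not called (log2 -0.288, limma adjusted p = 0.0704). Of 8 plasminogen system genes, the activator PLAT and the receptor PLAUR rose, with counts from 0 to 2 when 1 library was left out (0 without library 1 or 2 at 60 ug/ml or library 1 at 240 ug/ml, and 1 without library 2 or 3 at 240 ug/ml).

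Some complement and interferon genes fell. Of 16 complement and inflammasome genes, 7 fell (among them PYCARD, IL18, C1R, C1S, CFI and CLU) and none rose by limma (0 higher and 8 lower at an unadjusted p under 0.05; median -0.54). CFI, a serine protease that inactivates C3b, was low, at 1.4, 4.8 and 2.0 against 0.3, 0.4 and 0.4 (log2 -1.34, limma adjusted p = 0.00828). CLU, the chaperone and complement inhibitor clusterin, was at 161.7, 181.9 and 105.1 against 55.3, 42.2 and 48.1 (log2 -1.57, limma adjusted p = 0.00274). No library of one dose reached the range of the other. CFI and CLU were kept in all 12 fits, and the falls numbered 4 without library 1 at 60 ug/ml or 3 at 240 ug/ml, and 3 without library 2 of either dose or with equal totals.

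Of 39 interferon-stimulated genes tested, 8 fell (among them IFIT2, IFI6, IFITM1, IFITM3, IRF9, BST2 and HLA-C) and none rose by limma (5 higher and 17 lower at an unadjusted p under 0.05; median -0.263). IFITM3 was at 62.4, 68.0 and 47.5 against 26.8, 19.2 and 21.2 (log2 -1.36, SE 0.15, limma adjusted p = 0.000925). IFI6, a small interferon-induced protein, was at 18.5, 19.6 and 17.6 against 11.5, 7.0 and 9.2 (log2 -0.96, limma adjusted p = 0.00263). Both were without overlap, and all but IRF9 were kept in the 12 fits. IFITM1 and IFITM3 are similar in sequence and HLA-C has close relatives, so reads could be split between copies. HLA-C was barely detected, at 1.6, 1.6 and 2.1 against 0.1, 0.1 and 0.3.

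Chemokines and cytokines changed in both directions, 3 up (CXCL2, IL6 and CSF2) and 3 down (CCL2, CX3CL1 and IL18) of 20. IL6 was at 72.2, 49.4 and 66.1 against 127.8, 91.7 and 109.8 (log2 0.81, limma adjusted p = 0.00577). CX3CL1, the membrane-bound fractalkine, was at 26.0, 27.9 and 16.3 against 8.6, 9.4 and 8.5 (log2 -1.28, limma adjusted p = 0.00156). CCL2, which attracts monocytes, was low throughout, at 3.1, 5.9 and 5.6 against 1.1, 0.4 and 1.6 (log2 -1.54, limma adjusted p = 0.0111). None of the 3 overlapped.

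Among the proximal tubule genes that HK-2 cells still express, many fell. Of 37 listed, 17 passed the level filter, 8 of these fell (DAB2, SLC2A2, SLC4A4, SLC17A1, GGT1, GATM, AGT and PDZK1) and none rose by limma (1 higher and 11 lower at an unadjusted p under 0.05; median -0.438). The summed level of the list ran from 683 to 884 at 60 ug/ml and from 549 to 654 at 240 ug/ml. As a share of the library total it was 0.0736% to 0.0882% against 0.0652% to 0.0837%, which overlapped. PDZK1, the apical scaffold of transporters, was at 88.9, 108.5 and 72.4 against 51.1, 40.9 and 51.1 (log2 -0.89, limma adjusted p = 0.00319). GGT1, the brush border gamma-glutamyltransferase, was at 202.0, 196.7 and 148.8 against 119.0, 92.2 and 87.4 (log2 -0.87, limma adjusted p = 0.00465), and SLC2A2, the basolateral glucose transporter, fell by 0.96 (limma adjusted p = 0.00242). Both genes with printed libraries were apart, and the falls numbered 5 without library 2 at 60 ug/ml.

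Of 22 genes of the sodium pump and ion channels, 5 fell (ATP1B1, FXYD2, NKAIN4, SCNN1A and KCNJ16) and TRPM7 rose. Of all genes, 7.31% fell and 5.55% rose. The rises numbered 0 without library 1 or 2 at 60 ug/ml or library 2 at 240 ug/ml. The falls numbered 4 without library 2 at 60 ug/ml. ATP1B1, the pump's beta subunit, was at 56.6, 73.0 and 47.6 against 29.9, 37.0 and 34.8 (log2 -0.77, limma adjusted p = 0.00371). NKAIN4, a pump-interacting protein, fell by 1.60 (limma adjusted p = 0.00454).

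Junction genes fell in part. Of 22 tight junction and polarity genes, 6 fell (F11R, CLDN2, CLDN3, CGNL1, CRB3 and AMOT) and none rose by limma (2 higher and 9 lower at an unadjusted p under 0.05), with a list median of -0.0304. CLDN2, the cation pore of the proximal tubule, was at 246.9, 273.5 and 159.1 against 112.1, 87.4 and 81.5 (log2 -1.24, limma adjusted p = 0.00804). Its control mean was 146, so its mean stood above that of control at 60 ug/ml and below it at 240 ug/ml, and after GC subtraction the call was lost without library 1 or library 2 at 60 ug/ml (limma adjusted p up to 0.0622). F11R, the adhesion molecule JAM-A, was at 73.7, 65.7 and 62.3 against 47.3, 39.4 and 41.5 (log2 -0.64, limma adjusted p = 0.00224). The falls in the list numbered 3 without library 2 at 60 ug/ml and 4 without library 1.

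Of 21 adherens junction and desmosome genes, 5 fell (CDH16, CTNND1, JUP, NECTIN2 and EPCAM). CDH16, the kidney-specific cadherin, was at 9.3, 11.1 and 5.1 against 3.2, 2.7 and 2.6 (log2 -1.25, limma adjusted p = 0.00429), while CDH1 was near the limit at 0.9, 1.2 and 1.2 against 0.2, 0.2 and 0.3 and did not pass (limma adjusted p = 0.055). The 5 became 2 without library 1 or 2 at 60 ug/ml and 3 without library 2 at 240 ug/ml. Among 17 mesenchymal markers, ZEB1 rose and TWIST1, S100A4, SPARC and COL1A1 fell.

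Genes used as signs of tubule injury changed in both directions. Of 21 tested, 8 fell (HAVCR1, CLU, VCAM1, SOX4, CD24, TIMP2, IGFBP7 and CST3) and 2 rose, SOX9 and CD44 (median -0.282). With equal totals 5 fell and 3 rose, and the rises numbered 0 without library 2 at 60 ug/ml or library 2 or 3 at 240 ug/ml and 1 without library 1 of either dose. IGFBP7, a secreted IGF-binding protein, was at 532.5, 527.2 and 370.9 against 232.5, 155.3 and 195.6 (log2 -1.29, SE 0.16, limma adjusted p = 0.00146). HAVCR1, which encodes the injury marker KIM-1, was at 165.9, 187.8 and 120.3 against 108.7, 87.0 and 95.9 (log2 -0.68, limma adjusted p = 0.0141), and its call was lost without library 1 or 2 at 60 ug/ml or library 2 at 240 ug/ml (limma adjusted p up to 0.0624). Both were apart between the doses.

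Of 40 lysosomal genes, 12 fell and none rose by limma (2 higher and 22 lower at an unadjusted p under 0.05; median -0.288): cathepsins CTSD and CTSH, glycosidases GLB1 and GUSB, sulfatases including ARSA and ARSB, and the lipid-handling GM2A, ASAH1, SMPD1, NPC2 and LIPA. NPC2, which carries cholesterol out of lysosomes, was at 563.0, 600.6 and 452.5 against 364.9, 211.4 and 294.7, without overlap (log2 -0.91, limma adjusted p = 0.00518). ASAH1, CTSH, GUSB, LIPA and NPC2 were kept in all 12 fits. The falls numbered 6 and 5 without libraries 1 and 2 at 60 ug/ml, 5 and 7 without libraries 2 and 3 at 240 ug/ml, and 2 with equal totals.

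In autophagy, 3 of 30 genes rose (ATG9A, PIK3C3 and RB1CC1) and 3 fell (GABARAP, GABARAPL1 and GABARAPL2, of the ATG8 family). Of all genes, 5.55% rose and 7.31% fell. Only GABARAP was kept in all 12 fits that left out 1 library. GABARAP was at 307.8, 317.6 and 262.3 against 206.6, 149.0 and 178.9 (log2 -0.74, limma adjusted p = 0.00285). Of 13 metallothionein and zinc genes, MT1F, MT1G, MT1M and the importer SLC39A1 fell. MT1F was at 195.8, 212.0 and 118.9 against 85.1, 32.7 and 57.2 (log2 -1.63, limma adjusted p = 0.00382), in a family of near-identical copies whose reads the authors' counting could split. Both genes were apart between the doses, and the 4 became 2 without library 1 or 2 at 60 ug/ml or 2 or 3 at 240 ug/ml.

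Ribosomal and mitochondrial mRNAs had negative medians, but few genes passed. The size of these medians depended on the scaling. Under quantile normalization, which gives all libraries the same distribution of values, the median of ribosomal protein genes was -0.133. That of nuclear-encoded respiratory chain genes was -0.245, and that of mitochondrially encoded mRNAs -0.149. Of 79 cytosolic ribosomal protein genes, 4 fell (RPL3, RPL13A, RPS16 and RPS29) with a list median of -0.433, beside 34 lower at an unadjusted p under 0.05 by limma, and 22 fell without library 1 at 240 ug/ml, 2 without library 3 at 60 ug/ml and none without any of the other 4 libraries. These genes have many pseudogene copies. Their summed share of the total was 11% to 12.5% at 60 ug/ml and 8.2% to 11.8% at 240 ug/ml, which overlapped.

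Of 55 nuclear-encoded respiratory chain genes, 7 fell (median -0.333), from 1 without library 2 of either dose to 17 without library 1 at 240 ug/ml. Of 13 mitochondrially encoded mRNAs, 5 fell (MT-ND3, MT-ND6, MT-CO3, MT-ATP6 and MT-CYB; median -0.726), with 1 without library 1 or 2 at 60 ug/ml, 2 without library 2 or 3 at 240 ug/ml, and 9 without library 3 at 60 ug/ml. MT-ND6, the only one encoded on the light strand, was at 1201.7, 1139.2 and 911.1 against 553.0, 462.6 and 617.2 (log2 -0.99, limma adjusted p = 0.00715) and was kept in all 12 fits. Under quantile normalization MT-CO3 (log2 -0.183, limma adjusted p = 0.2) and MT-ATP6 (-0.258, limma adjusted p = 0.425) were not called. Summed, the mitochondrial mRNAs took 13.5% to 19.8% of the total at 60 ug/ml and 11.4% to 13% at 240 ug/ml. The part of RNA quality or of these shares in the other results was not tested.

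Cell death genes gave mixed calls. Of 16 BCL2 family genes, PMAIP1, BNIP3 and BNIP3L rose and BCL2, BAD, BMF and BBC3 fell. BCL2, the anti-apoptotic founder of the family, was at 9.3, 9.9 and 7.2 against 4.9, 5.6 and 4.8, without overlap (log2 -0.68, limma adjusted p = 0.00363). Several counts in these small lists rested on single libraries. The BCL2 family rises numbered 0 without any library but the third at 60 ug/ml or the second at 240 ug/ml (1), and its falls 1 without library 1 or 2 at 60 ug/ml. In autophagy the rises numbered 0 to 3 and the falls 1 to 4, both lowest without library 2 at 60 ug/ml, and among mesenchymal markers the falls numbered 1 to 3, lowest without the same library.

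**Figure D4:**
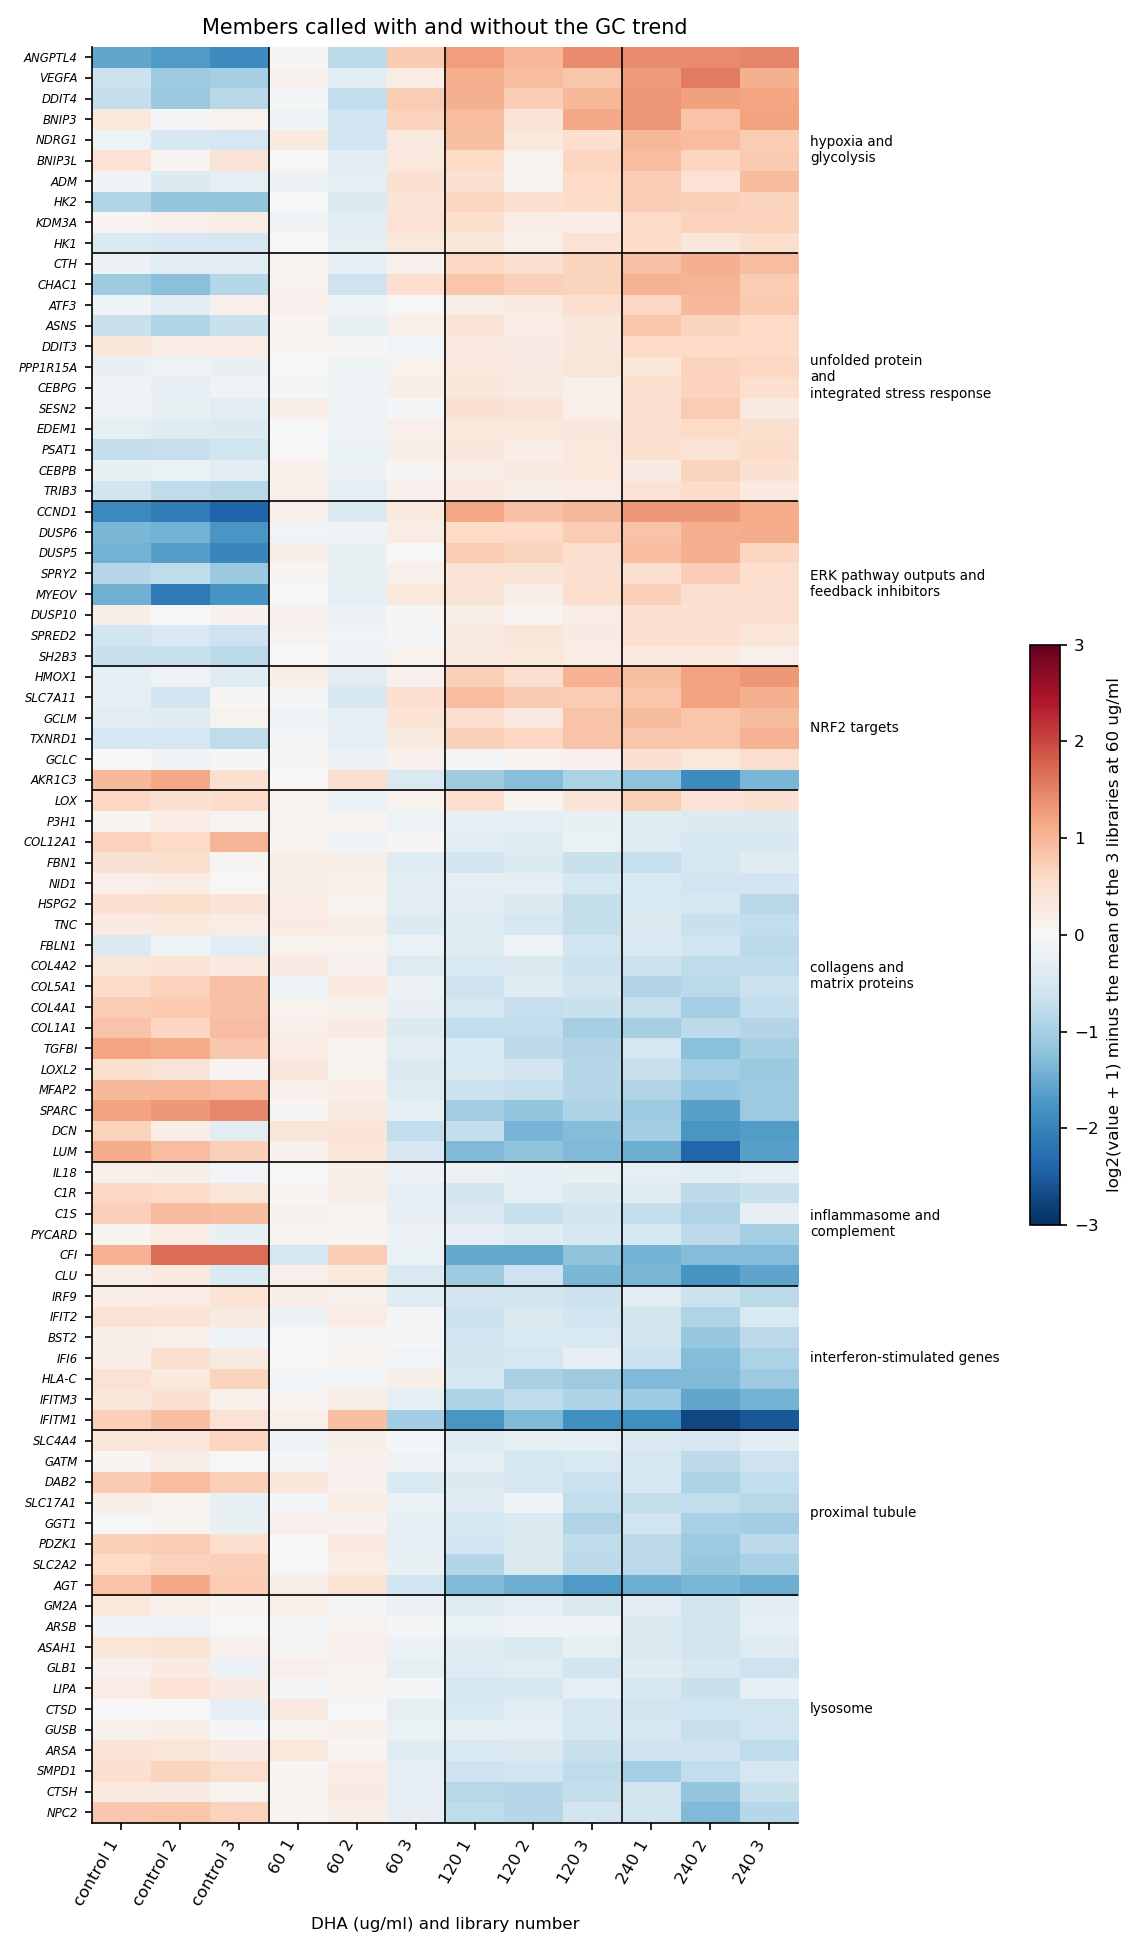
Difference in log2(value + 1) from the mean of the 3 libraries at 60 ug/ml, in all 12 libraries (columns), for 86 rows of genes that rose or fell in both fits, grouped by list. Some members are not drawn. Hypoxia, stress response and ERK members are above 0 at 240 ug/ml and matrix, complement, interferon, proximal tubule and lysosome members below, except LOX, and library 3 at 60 ug/ml lies nearer the higher dose than libraries 1 and 2 for many genes.

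Some large deposited differences were not called once the GC trend was subtracted. INSIG2, which retains the SREBP complex in the ER, was higher by 0.98 (limma adjusted p = 0.0191), and by 0.72 after subtraction (limma adjusted p = 0.061). INHBA, the activin A subunit, was higher by 0.93 (limma adjusted p = 0.0355; 0.0578 after subtraction) and PPP4R2, a phosphatase subunit, by 0.86 (limma adjusted p = 0.0185; 0.064 after subtraction). On the other side, DOC2B differed by -1.07, TRAPPC6A by -1.07 and COX6A2 by -1.06, with limma adjusted p of 0.101, 0.052 and 0.0592 after subtraction. All 6 kept their sign after subtraction, and the groups did not overlap on the deposited values. Their deposited calls also rested on single libraries: leaving out 1 library lost the call in 4 of the 6 fits for INHBA, DOC2B and TRAPPC6A and in 3 for INSIG2, PPP4R2 and COX6A2. DOC2B, listed at 0 in library 3 at 240 ug/ml, differed by -0.54 without that library (limma adjusted p = 0.0749).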

How the data were processed

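Per the labels' protocols, HK-2 RNA was poly(A)-selected and sequenced paired-end with dUTP strand marking. The deposited values are a normalized signal per Ensembl transcript, 267165 transcripts in 12 libraries, with the build GRCh38.p14 per the submitters' processing notes. For aligner, counting tool, strand setting and normalization the sources used here give nothing, and antisense overlaps cannot be resolved. Transcripts were summed per gene through GENCODE 29 (75.7% matched). The 16774 genes reaching 1 in 3 or more libraries were tested on log2(value + 1) with limma 3.58.1 (R 4.3.3), with means for all 4 groups and Benjamini-Hochberg adjustment. In the other fit, each library's loess trend on GC (span 0.3) was subtracted. The code was tested on simulated data. The members and lists were chosen with earlier results of these data known. By rule, protein-coding genes were named where they were the 8 highest or lowest called in both fits, the up to 3 largest called per list, and the 3 highest or lowest called only without subtraction. Other named genes were chosen after their values were seen. Whether replicate numbers pair the libraries was not settled. Deviations from the group means correlated at 0.0608, -0.00536 and 0.141 between libraries 1, 2 and 3 of the compared doses. Between libraries of unlike numbers they correlated at -0.141 to 0.0703. At both doses library 3 scored highest of its group on the second principal component (0.133 and 20.2). No 2 libraries held identical values. Alternatives are in the closing section. A few genes and 1 list are not reported here.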

Additional observations from a re-analysis of the deposited data

How the results depend on the processing

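On the deposited values (1964 higher, 2202 lower), equal library totals gave 4056 and 882, only the 6 libraries 958 and 1104, GC subtraction 1282 and 1460, and GC and length subtraction 1226 higher. Leaving out 1 library gave 911 to 2412 higher and 1143 to 2589 lower. With the GC trend subtracted, equal totals gave 3547 and 602, only the 6 libraries 312 and 463, and leaving out 1 library 354 to 1695 higher and 543 to 1775 lower (467, 354, 1164, 546 and 615 higher without libraries 1 and 2 at 60 ug/ml, then 1, 2 and 3 at 240 ug/ml, and 642, 543, 728 and 860 lower without libraries 1 and 2 at 60 ug/ml, then 2 and 3 at 240 ug/ml). In both fits (931 and 1227), equal totals gave 2738 and 494, only the 6 libraries 247 and 419, and leaving out 1 library 258 to 1266 and 476 to 1464. The cause of these shifts was not tested. A log2 change of 1 or more was reached by 227 genes, by 434 with a pseudocount of 0.1, 75 with 5, 435 without library 3 at 60 ug/ml and 148 without library 2. All 2158 genes called in both fits kept their sign in every alternative, except 2155 with equal totals and 1967 of those tested with a minimum of 5. Of 121 named genes that were called, 62 kept the call in all 12 fits that left out 1 library. Under the replicate block 2435 were higher and 2698 lower, 1224 and 1533 in both fits, and 1679 and 1846 with GC subtracted. Whether the numbers pair the libraries was not settled. Among genes not called, CSF1R turned to -0.117 without library 3 at 60 ug/ml (up to 0.195 without library 1), and SYNPO to 0.093 with equal totals, 0.0651 with GC subtracted and with the block, and, with GC subtracted and 1 library left out, to between 0.0267 and 0.15 (0.137, 0.0317 and 0.0591 in between). Depth is unknown, so precision at low levels cannot be stated.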

Other observations

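Several genes outside the lists had large changes that were kept in all 12 fits leaving out 1 library. They were chosen after their values were seen. HOGA1, a mitochondrial enzyme of hydroxyproline breakdown whose loss causes primary hyperoxaluria, was at 50.6, 62.2 and 39.5 at 60 ug/ml against 12.9, 14.2 and 14.1 at 240 ug/ml (log2 -1.79, SE 0.16, limma adjusted p = 0.000848). ELF3, an epithelial ETS factor, was at 112.7, 123.3 and 88.4 against 48.3, 36.4 and 36.6 (log2 -1.40, limma adjusted p = 0.000925). The doses did not overlap in either gene. CEBPD, a C/EBP factor of the acute phase, was at 50.2, 57.2 and 34.0 against 17.3, 13.8 and 16.4 (log2 -1.49, limma adjusted p = 0.0014), while its relative CEBPB rose by 0.46 (limma adjusted p = 0.0118), a call lost in 1 of the 12 fits. WFDC2 (-1.45), OPN3 (-1.38), TCN2, which carries vitamin B12 (-1.37), CRISPLD2 (-1.32) and RARRES2, the chemoattractant chemerin (-1.65), fell with limma adjusted p from 0.000925 to 0.00239.

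Among genes that rose, HMGA2, a chromatin protein of embryonic and tumour cells, was at 165.0, 117.5 and 214.8 against 337.9, 335.6 and 307.2 (log2 1.02, limma adjusted p = 0.00351). SEMA7A, a membrane-anchored semaphorin, was at 17.7, 12 and 17.5 against 34.2, 36.4 and 29.4 (log2 1.05, limma adjusted p = 0.00158). Neither gene overlapped between the doses. THBD, the anticoagulant receptor thrombomodulin, rose from 3.0, 2.5 and 2.1 to 5.9, 10.1 and 4.1 (log2 1.06, limma adjusted p = 0.0121). By annotated type, 30.1% of 12721 protein-coding genes were called on the deposited values, against 9.27% of 755 long intergenic and 9.1% of 1154 antisense RNAs. In both fits 838 protein-coding genes rose and 1123 fell, against 9 and 33 long intergenic and 24 and 27 antisense RNAs. The part of signal level in this contrast was not tested.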
